A study of Mus musculus with 12 samples.

Results

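The genes described are Hmgcs1, Idi1, Fdps, Sqle, Lss, Srebf2 and Insig1, which make cholesterol or control its making. They were chosen by symbol from the table of normalized expression, and all 7 were found among its 32494 genes. All 7 passed the filter of mean expression (1 CPM or more, CPM being reads scaled to library size), which left 15359 genes for testing. The name under which they were grouped also covers cholesterol uptake, but none of the 7 is an uptake receptor, so the group is called cholesterol synthesis genes here. Insig1 and Srebf2 are regulators and the other 5 are enzymes.

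Messenger RNA was sequenced in 12 samples of hypothalamus from male mice. All 12 samples came from animals with floxed Smc3 alleles that were given tamoxifen, and tissue was collected 5 weeks later. The protocol gives an age of 8 weeks without naming the step. In 7 samples the Camk2a-cre/ERT2 transgene was absent (Cre-, labelled WT), and in 5 it was present (Cre+, labelled cKO). The Camk2a promoter drives this tamoxifen-activated recombinase in forebrain excitatory neurons, so glia, which hold much of the cholesterol synthesis of brain, are not its target. Every group had floxed alleles and tamoxifen, and the titles of all 12 also carry the word control, which was not used. The labels number the samples without saying that each is a different animal, so p-values measure the spread between these samples, which may be technical. Whole tissue was measured, so fewer cells of a type and less RNA per cell cannot be told apart.

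Cells make cholesterol from acetyl-CoA through mevalonate, isoprenoids and squalene. SREBP-2, the product of Srebf2, is a transcription factor held in the endoplasmic reticulum by INSIG proteins when sterols are plentiful, and released to switch on the pathway's genes when sterols are scarce. Brain makes its own cholesterol, since lipoproteins of the blood do not cross into it, and oligodendrocytes need large amounts for myelin.

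The promoters of 4 genes are shown. Hmgcs1 and Insig1 were both highest in the same 4 libraries. Idi1 was highest there too, but its window is not printed. Lss was the member that differed between the groups, and Srebf2 was the member that cKO 13 set apart from the others. The promoters are RefSeq windows of 300 bases on build GRCm38.p6, from 250 bases before to 50 after the start of the gene, on the plus strand. Of the 7 genes, 5 had a window in that table. Capitals mark matches on either strand to TCACNCCAC (a sterol regulatory element), CACNCCAC (its shorter form, contained in it), CCAAT (the NF-Y box, ATTGG on the other strand) and GGGCGG (the GC box, CCGCCC on the other strand).
Hmgcs1, chr13:119690101-119690400: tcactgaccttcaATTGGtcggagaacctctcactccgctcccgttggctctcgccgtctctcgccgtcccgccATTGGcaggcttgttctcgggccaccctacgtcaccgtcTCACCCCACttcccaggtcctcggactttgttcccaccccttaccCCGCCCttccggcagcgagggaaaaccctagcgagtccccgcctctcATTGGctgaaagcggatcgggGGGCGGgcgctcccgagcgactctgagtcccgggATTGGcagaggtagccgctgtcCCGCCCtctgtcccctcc
Insig1, chr5:28071162-28071461: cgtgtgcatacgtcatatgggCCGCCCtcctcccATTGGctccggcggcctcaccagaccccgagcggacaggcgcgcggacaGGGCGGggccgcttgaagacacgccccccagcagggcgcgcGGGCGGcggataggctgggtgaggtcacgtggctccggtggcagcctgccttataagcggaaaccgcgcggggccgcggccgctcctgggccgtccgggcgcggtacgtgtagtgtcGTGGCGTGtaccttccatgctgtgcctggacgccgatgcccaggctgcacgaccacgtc
Lss, chr10:76531355-76531654: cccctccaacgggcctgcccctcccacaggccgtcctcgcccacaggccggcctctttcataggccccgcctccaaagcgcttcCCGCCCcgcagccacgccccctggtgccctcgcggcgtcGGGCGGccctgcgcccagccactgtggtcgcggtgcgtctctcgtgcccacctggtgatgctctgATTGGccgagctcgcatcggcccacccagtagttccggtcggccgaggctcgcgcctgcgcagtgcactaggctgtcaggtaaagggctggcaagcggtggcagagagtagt
Srebf2, chr15:82147019-82147318: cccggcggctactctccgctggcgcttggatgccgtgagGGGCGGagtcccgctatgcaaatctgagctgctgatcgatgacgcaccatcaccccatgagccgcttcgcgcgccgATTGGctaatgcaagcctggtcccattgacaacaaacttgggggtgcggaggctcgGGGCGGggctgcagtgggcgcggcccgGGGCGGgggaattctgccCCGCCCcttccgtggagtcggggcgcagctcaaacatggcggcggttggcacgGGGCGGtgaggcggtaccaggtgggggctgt
TCACNCCAC occurred in Hmgcs1 alone of the 5 windows, with its first base at -137 from the start, and in 1.24% of all 32851 windows of this length. CACNCCAC also occurred in Insig1, and in 6.24% of all windows. Idi1, which was highest in the same libraries as Hmgcs1 and Insig1, held neither form. CCAAT was present in all 5 windows, 4 times in Hmgcs1, and in 37.4% of all windows. GGGCGG was likewise in all 5, Idi1 included, and in 35.7% of all. A match is a run of letters and not a measured binding site.

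Smc3, which encodes a core subunit of cohesin and is the floxed gene, ran against the labels: its level was 76.8 to 85.7 CPM where the label is WT and 116 to 144 CPM where it is cKO (log2 fold change 0.67, limma adjusted p-value 3.06e-05). Groups are therefore called by their labels throughout. The recovered reads came to 17.1 to 24.0 M in all libraries but WT 1, which had 68.7 M. The member genes rested on between 165 reads (Idi1) and 24945 reads (Hmgcs1) per library. A principal component analysis set WT 4, WT 5, cKO 12 and cKO 13 apart from the other 8 libraries on the first component, which held 36.1% of the variance (17.7 to 21.1 against -23.0 to -0.50). Markers of hypothalamic neurons were low in these 4 libraries: 6 of 12 held their lowest values there in both groups. The sum of the 12 was 80.9 to 260.1 CPM in them and 407 to 778 CPM in the other 8, and Oxt, the oxytocin gene of paraventricular and supraoptic neurons, was at 0.280 to 2.33 CPM against 69.5 to 348 CPM. Oxt was chosen after its values were seen, and not every marker separated the libraries: Hcrt, the hypocretin gene of the lateral hypothalamus, was at 11.95 to 42.8 CPM in the 4 and 0.372 to 79.2 CPM in the 8, lowest in WT 11. Of the 12 markers only Nr5a1, a marker of the ventromedial nucleus, was at 0 in any library.

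The expression of 6 of the 7 genes was not called different between the groups, and Lss, the enzyme that closes squalene epoxide into lanosterol, was lower in the libraries labelled cKO by 0.20 on the log2 scale. The test was limma on log2(CPM + 1), with p-values adjusted by Benjamini-Hochberg over all 15359 genes and a threshold of 0.05. It called 14.1% of all genes, 6.54% with higher and 7.60% with lower expression under the cKO label, and 1 of the 7 members is 14.3%, so the share of members called was near the background. The median log2 fold change was 0.02 over the 7 genes and 0.01 over all genes, and the sign of the first turned with single libraries (-0.04 without cKO 13 and -0.02 without cKO 12 or WT 11, against 0.04 without cKO 8). Of the members, 4 had positive and 3 negative fold changes. The ranges of the 2 groups overlapped for all 7, and were apart for 6.73% of all genes.

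**Figure D1:**
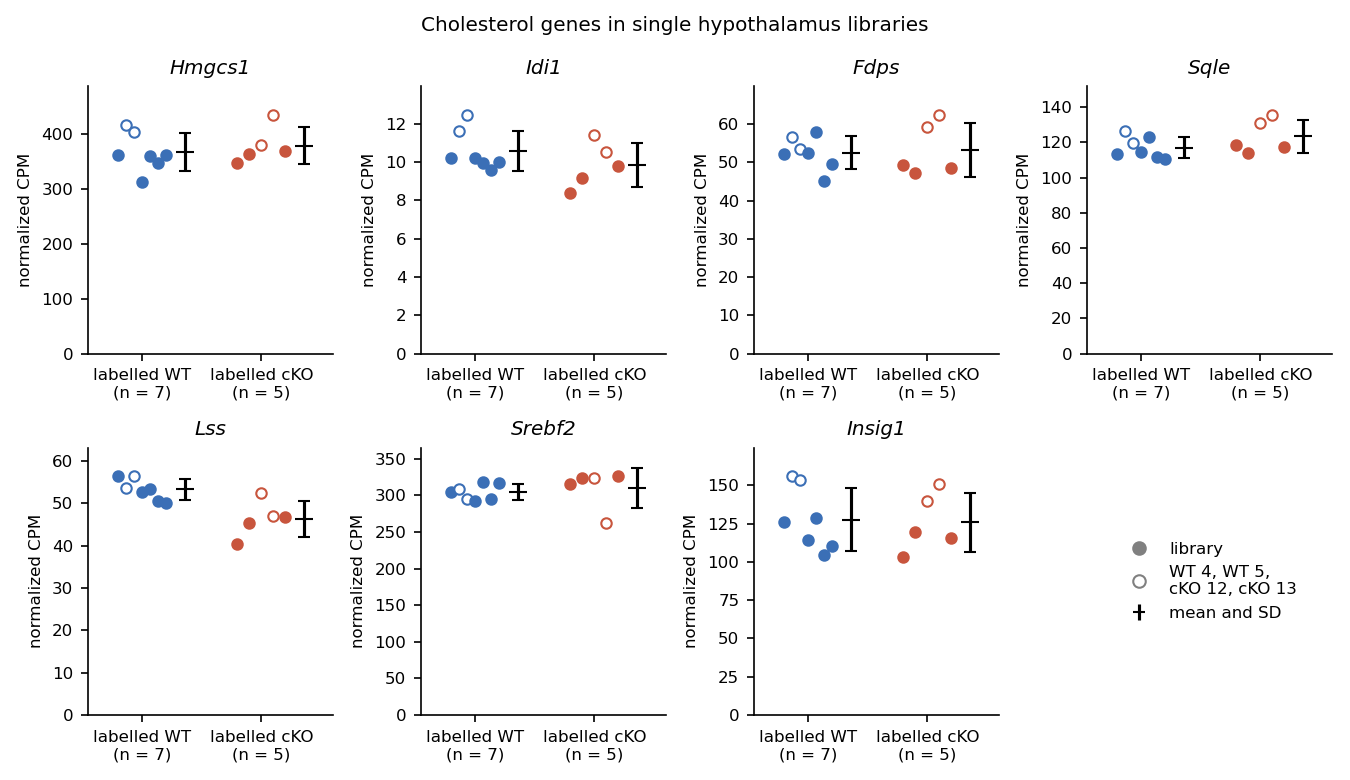
Normalized CPM of the 7 genes in each library, with points for single libraries labelled WT (blue, n = 7) or cKO (red, n = 5) and bars for the mean and SD. Open points are WT 4, WT 5, cKO 12 and cKO 13, which held the top values of Insig1, Hmgcs1 and Idi1 within both groups, and 4 of the 5 cKO values of Lss lay below every WT value.

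The mevalonate steps are represented by Hmgcs1, Idi1 and Fdps. Hmgcs1 encodes the synthase that makes HMG-CoA, an early intermediate of the pathway. Its level in the libraries labelled WT was 313 CPM at the lowest, 361 at the median and 416 at the highest. In those labelled cKO it was 347 CPM in cKO 8, 363 in cKO 9, 379 in cKO 12, 435 in cKO 13 and 369.7 in cKO 14. The ranges overlapped from 347 to 416 CPM, with cKO 13 the only library above the highest WT value. This gave a log2 fold change of 0.05 (SE 0.07, 95% interval -0.10 to 0.20, limma adjusted p-value 0.677).

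Idi1 encodes the isomerase that interconverts the 5-carbon isoprene units, and was the member with the fewest reads. It lay at 9.58 CPM (lowest), 10.2 CPM (median) and 12.5 CPM (highest) in the libraries labelled WT. In those labelled cKO it was 8.39 CPM in cKO 8, 9.17 in cKO 9, 11.4 in cKO 12, 10.5 in cKO 13 and 9.77 in cKO 14. WT 4 and WT 5 were above all 5 libraries labelled cKO, and cKO 8 and cKO 9 were below all 7 labelled WT. The log2 fold change was -0.10 (SE 0.08, 95% interval -0.27 to 0.08, limma adjusted p-value 0.440). When 1 library was left out it ran from -0.147 (without cKO 12) to -0.047 (without cKO 8). Without WT 4, WT 5, cKO 12 and cKO 13 its two-sided exact permutation p-value was 0.0357 over 56 splits, against 0.277 over all 12 libraries, while the limma adjusted p-value was 0.254. The GC and length correction put it at -0.17 (limma adjusted p-value 0.167).

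Fdps encodes the synthase that makes farnesyl diphosphate, the branch point to squalene, ubiquinone and protein prenylation. Its values in the libraries labelled WT ran from 45.1 CPM through a median of 52.5 to 58.0 CPM. Those labelled cKO split, with 49.3 CPM in cKO 8, 47.2 in cKO 9 and 48.4 in cKO 14, and 59.4 in cKO 12 and 62.5 in cKO 13. The last 2 exceeded every library labelled WT. Over all 12 libraries the log2 fold change was 0.02 (SE 0.08, 95% interval -0.15 to 0.19, limma adjusted p-value 0.909), and it was -0.09 (limma adjusted p-value 0.449) without the 4 libraries that stood apart.

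Sqle and Lss act one after the other. Sqle encodes squalene monooxygenase, the first oxygen-requiring step and a point of flux control. In the libraries labelled WT it lay at 111 CPM (lowest), 114 CPM (median) and 126 CPM (highest). In those labelled cKO it was 118 CPM in cKO 8, 114 in cKO 9, 131 in cKO 12, 136 in cKO 13 and 118 in cKO 14. The 2 libraries above the WT range were again cKO 12 and cKO 13. The difference was 0.07 on the log2 scale (SE 0.05, 95% interval -0.04 to 0.18, limma adjusted p-value 0.346). Without cKO 13 it was 0.039 (limma adjusted p-value 0.633), and without cKO 9 it was 0.10 (0.232). It was 0.026 without the 4 libraries that stood apart and 0.025 with an astrocyte marker score as a covariate.

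Lss was at 50.1 CPM (lowest), 53.5 CPM (median) and 56.5 CPM (highest) in the libraries labelled WT. In those labelled cKO it was 40.4 CPM in cKO 8, 45.3 in cKO 9, 52.4 in cKO 12, 47.0 in cKO 13 and 46.8 in cKO 14. Of these, 4 lay below all 7 libraries labelled WT, and cKO 12 lay inside the WT range. The means were 53.3 ± 2.51 CPM (SD, n = 7) and 46.4 ± 4.29 CPM (SD, n = 5), a ratio of 0.870. The log2 fold change was -0.20 (SE 0.06, 95% interval -0.32 to -0.08, limma adjusted p-value 0.0310), and the two-sided exact permutation p-value was 0.00505, where the smallest that 792 splits allow is 0.00126.

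The call on Lss was close to the threshold. Dropping single libraries lost it in 6 of 12 cases (WT 1, WT 4, cKO 8, cKO 9, cKO 13 or cKO 14; limma adjusted p-values up to 0.0672), and it was also lost with a thalamic marker score added as covariate (log2 fold change -0.23, SE 0.080 against 0.056, adjusted p-value 0.119), after the GC and length correction (-0.16, adjusted p-value 0.0784) and over all genes above 0 (0.0537). The log2 fold change stayed negative in each of the 28 alternative fits, from -0.26 to -0.15. Without the 4 libraries that stood apart the log2 fold change was -0.25 (limma adjusted p-value 0.0289). The 3 remaining libraries labelled cKO (40.4 to 46.8 CPM) lay below the 5 labelled WT (50.1 to 56.4 CPM). That separation is not separate evidence, because cKO 12, the only library labelled cKO inside the WT range, was among the 4 removed. In the authors' deposited table Lss is given at a log2 fold change of -0.20 (FDR 0.0710), and none of the 7 was under an FDR of 0.05 there. Of all 32494 genes listed there 4.94% were, a share that includes genes below the expression filter used here. As a ratio within each library, chosen after the values were seen and not tested, Lss over Sqle was 0.425 to 0.499 in the libraries labelled WT and 0.341 to 0.400 in those labelled cKO, with no overlap. These genes had the lowest (Lss, -0.20) and the highest (Sqle, 0.07) log2 fold change of the 7. How often other ratios separate the groups was not counted, so the ratio adds no evidence to the call.

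The regulators were not called different. Srebf2 was at 292 CPM (lowest), 305 CPM (median) and 319 CPM (highest) in the libraries labelled WT. In those labelled cKO it was 315 CPM in cKO 8, 324 in cKO 9, 324 in cKO 12, 262 in cKO 13 and 326 in cKO 14. Of the 5, 3 exceeded every WT value and cKO 13 lay below them all. Together these gave a log2 fold change of 0.02 (SE 0.05, 95% interval -0.09 to 0.14, limma adjusted p-value 0.807). Without cKO 13 it was 0.08 with a limma adjusted p-value of 0.139, and the exact permutation p-value went from 0.658 to 0.0182. Corrected for GC and length it was 0.11 (SE 0.040, limma adjusted p-value 0.0838).

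Insig1 encodes the sterol-dependent anchor of the SREBP complex and is itself a target of SREBP-2. It had the widest spread of the 7, from 104 CPM (lowest) through 126 CPM (median) to 156 CPM (highest) in the libraries labelled WT. In those labelled cKO it was 103 CPM in cKO 8, 119.8 in cKO 9, 139.5 in cKO 12, 151 in cKO 13 and 116 in cKO 14. Both groups covered nearly the same range, with coefficients of variation of 16.0% (WT) and 15.1% (cKO). On the log2 scale the difference was -0.02 (SE 0.11, 95% interval -0.26 to 0.22, limma adjusted p-value 0.930). The intervals of the 6 genes that were not called stayed within -0.27 and 0.22, and a missed threshold does not show equal expression.

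Per kilobase of annotated exon (the union of exons in GENCODE M21), the levels over all 12 libraries differed widely. Hmgcs1 was highest at 80.9 ± 7.24 CPM per kb (SD, n = 12). Srebf2 at 42.7 ± 2.60 and Insig1 at 41.0 ± 6.13 CPM per kb followed and did not differ beyond their spread, Srebf2 being higher in 8 of 12 libraries. Sqle (21.6 ± 1.44), Fdps (12.6 ± 1.27), Lss (4.68 ± 0.444) and Idi1 (2.93 ± 0.317 CPM per kb) came next, each above its successor in all 12 libraries. The exon union is longer than any single transcript for some genes, which lowers this level. The same length was used in every library, so the counts of libraries do not show that the order holds for other lengths.

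The rest of the pathway was described through lists that also hold the members. Of the 20 synthesis enzymes, all tested, 0 were higher and 1 (Lss) was lower by limma, or 5.00% against the background of 14.1%. An unadjusted p-value under 0.05 was reached by 2, Lss and Ebp, the sterol isomerase (log2 fold change 0.19, limma adjusted p-value 0.0981), and their median log2 fold change was 0.01. Fdft1, the squalene synthase between Fdps and Sqle, had a log2 fold change of 0.05 (limma adjusted p-value 0.581), and Cyp51 and Msmo1, the enzymes that demethylate lanosterol after Lss, were at 0.14 (0.184) and 0.18 (0.186). Dhcr7, a reductase of the last steps, was at -0.02 (0.864) and was not called either. The lowest fold change of the list was -0.22, that of Hsd17b7, a sterol reductase (limma adjusted p-value 0.181). Cyp51 did pass with arrayWeights (0.15, limma adjusted p-value 0.0339) and with the first component as a covariate (0.11, 0.0479). Msmo1 passed with the oligodendrocyte score (0.17, limma adjusted p-value 0.0274) and with the first component (0.15, 0.0226). With the astrocyte score both were smaller, Cyp51 at 0.054 (limma adjusted p-value 0.465) and Msmo1 at 0.059 (0.466), and without cKO 13 Msmo1 was at 0.10 (0.418).

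**Figure D2:**
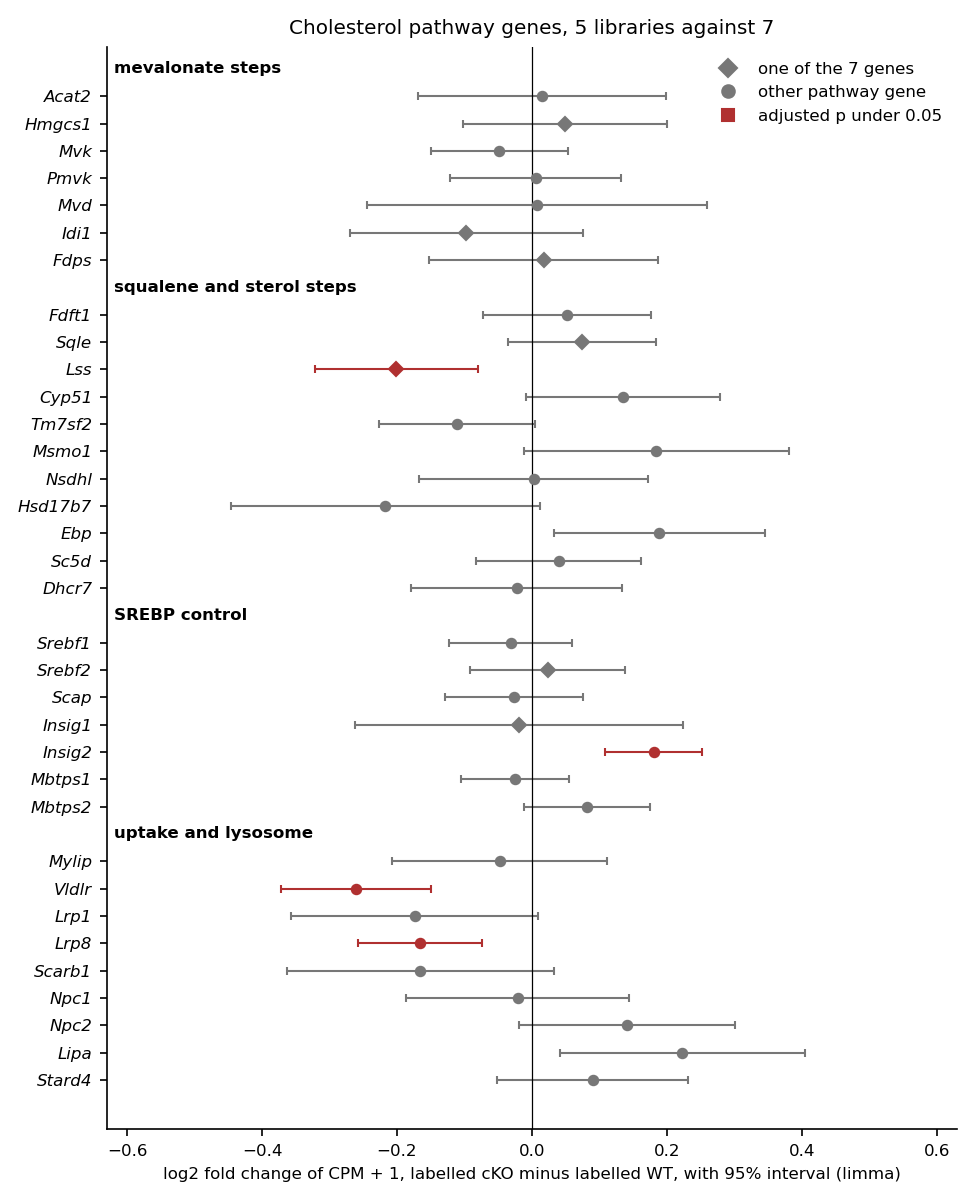
Log2 fold change of CPM + 1 (libraries labelled cKO minus those labelled WT) for tested genes of the pathway, with 95% limma intervals; diamonds are the 7 genes and red marks an adjusted p-value under 0.05. Lss at -0.20 and Insig2 at 0.18 are the called genes among synthesis and SREBP control, and Vldlr at -0.26 and Lrp8 at -0.17 are those among uptake genes.

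Among the 7 genes of SREBP control, 1 was higher and 0 were lower by limma, or 14.3% called against 14.1% of all tested genes. That was Insig2, the paralogue of Insig1, which is not induced by SREBP-2. It lay at 61.5 CPM (lowest), 63.4 CPM (median) and 64.4 CPM (highest) where the label is WT. Under the cKO label it was 71.5 CPM in cKO 8, 70.3 in cKO 9, 68.7 in cKO 12, 77.1 in cKO 13 and 71.8 in cKO 14. All 5 exceeded all 7. The log2 fold change was 0.18 (SE 0.03, limma adjusted p-value 0.00663) and it passed in all 28 alternative fits, with adjusted p-values up to 0.0351. Srebf1 (-0.03, adjusted p-value 0.655), which encodes SREBP-1, and Scap (-0.03, 0.747), which escorts the SREBP proteins, were not called.

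Of the 10 tested uptake and lysosome genes, 0 were higher and 2 were lower by limma, against 7.60% lower among all tested genes, with a median log2 fold change of -0.11 (0.01 over all genes). Vldlr, a lipoprotein and reelin receptor, had means of 85.1 ± 5.83 CPM (SD, n = 7, WT) and 70.8 ± 3.59 CPM (SD, n = 5, cKO). The groups did not overlap, and the log2 fold change was -0.26 (limma adjusted p-value 0.00833). Lrp8, the other reelin receptor, was at -0.17 (limma adjusted p-value 0.0240). Lrp8 was not past the threshold without WT 1, cKO 9, cKO 13 or cKO 14 (log2 fold changes of -0.16 to -0.14, limma adjusted p-values up to 0.0562), and its FDR in the authors' deposited table was 0.0701, while Vldlr with the thalamic score was at -0.22 (SE 0.073 against 0.052, limma adjusted p-value 0.0968).

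Of the 8 tested export and turnover genes, 0 were higher and 1 was lower (12.5%, near the 14.1% of all tested genes): Cyp46a1, the neuronal enzyme that turns cholesterol into 24-hydroxycholesterol, with means of 165 ± 18.8 CPM (SD, n = 7, WT) and 134 ± 9.64 CPM (SD, n = 5, cKO). Its log2 fold change was -0.29 (limma adjusted p-value 0.0210), and -0.11 (adjusted p-value 0.420) once the thalamic score was a covariate and -0.25 (adjusted p-value 0.0937) without the 4 libraries that stood apart. Of the 7 genes of isoprenoid branches, 2 (28.6%, against 6.54% higher among all tested genes) were higher, Ggps1, which makes geranylgeranyl diphosphate (0.16, limma adjusted p-value 0.0119), and Fnta, a subunit of the prenyl transferases (0.19, 0.0342). With the thalamic score Ggps1 had a larger fold change of 0.18 but also a larger SE (0.049 against 0.034), and the limma adjusted p-value was 0.0613. Fnta was not past it in 12 of 28 alternative fits, those without WT 1, WT 7, WT 11, WT 15, cKO 9, cKO 12 or cKO 13 among them (limma adjusted p-values up to 0.0667 when 1 library was left out). Its fold change was 0.18 with the thalamic score (limma adjusted p-value 0.196), 0.12 with the astrocyte score (0.0516) and 0.14 after the GC and length correction (0.0628), and its FDR in the authors' deposited table was 0.0645. Of 10 genes of fatty acid synthesis, 0 were called in either direction, with 2 at an unadjusted p-value under 0.05, and edgeR and DESeq2 called 0 as well. Over 10 thalamic neuron markers 5 were lower by limma (7.60% of all tested genes were) and 0 higher, with none at 0 and sums of 1566 to 2404 CPM under the WT label and 1342 to 1663 CPM under the cKO label. Beyond the covariate fits given, their part in these differences was not tested.

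Most members were high in the 4 libraries that stood apart, in both groups. In WT 4, WT 5, cKO 12 and cKO 13, every one of 24 values of the 6 genes other than Srebf2 lay above its group mean, and in the other 8 libraries 41 of 48 lay below. The second count is not separate evidence, because values above a group mean must be balanced by values below it. Srebf2, left out of both counts, was below its group mean in WT 5 (-0.046) and cKO 13 (-0.24). The 4 libraries were picked from expression in these same data. The share of all tested genes above their group means in all 4 was not counted. WT 4 and WT 5 held the top 2 places of WT, and cKO 12 and cKO 13 those of cKO, for Hmgcs1, Idi1 and Insig1. That pattern was found in 6.73% of all tested genes, in 11 of the 27 genes of synthesis and SREBP control, in 10 of the 20 synthesis enzymes and in 10 of the 10 oligodendrocyte markers. Other lists held it too: 4 of 8 general neuron markers, 4 of 10 astrocyte markers, 2 of 8 vascular markers and 4 of 10 fatty acid synthesis genes. Of 8 microglial markers 0 held it. Fdps and Sqle departed from it through WT 7, and Lss through WT 1. The reverse pattern, the lowest values in those libraries, was found in 0 of the 7 members and in 5.31% of all tested genes. Srebf2 ranked 3 and 6 of 7 in WT 4 and WT 5, and 3 and 5 of 5 in cKO 12 and cKO 13.

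**Figure D3:**
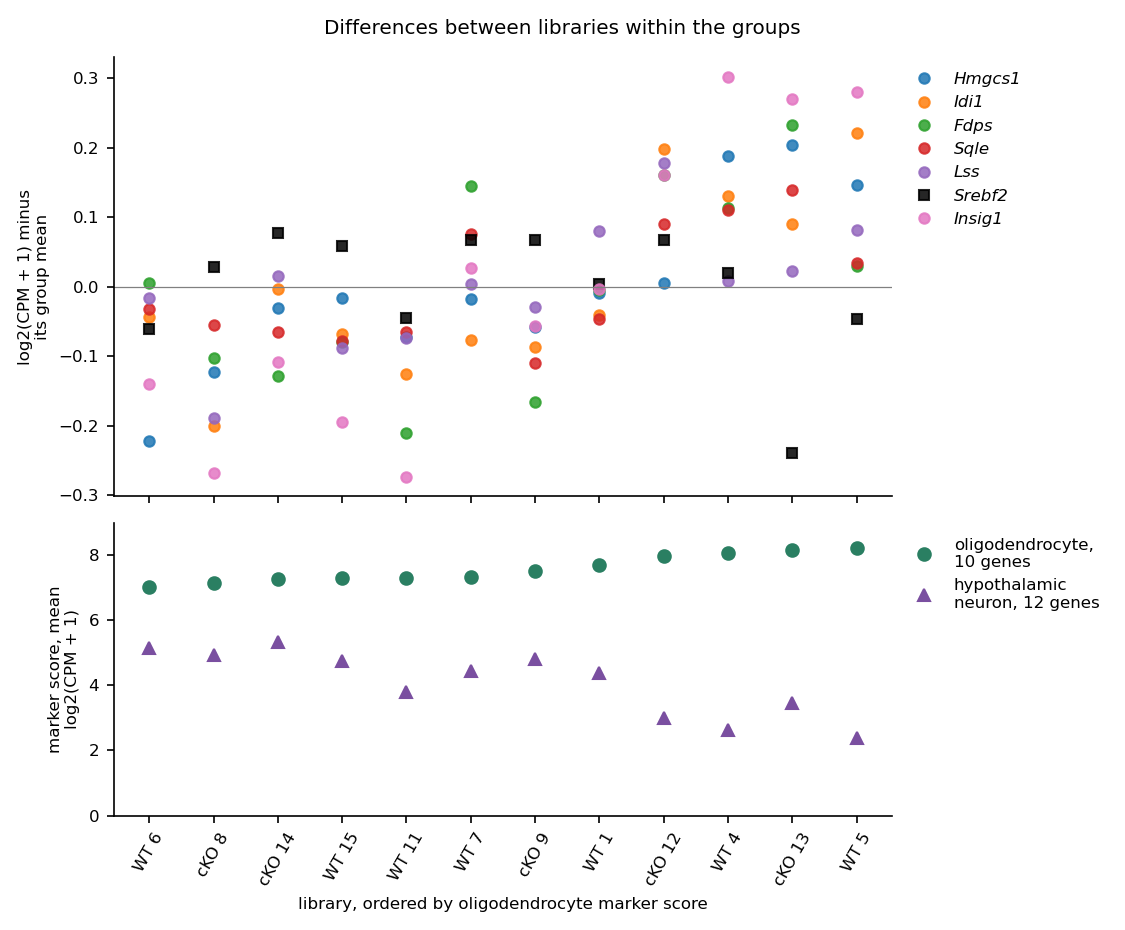
The upper panel shows log2(CPM + 1) of each gene minus its group mean for the 12 libraries, and the lower panel the mean log2(CPM + 1) of oligodendrocyte and hypothalamic neuron markers. The 4 libraries on the right have oligodendrocyte scores of 7.96 to 8.21 and hypothalamic scores of 2.39 to 3.47, and Srebf2 (black squares) lies lowest in cKO 13.

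The oligodendrocyte marker list was detected in full, with 0 of 10 genes at 0. Its summed level was 4272 to 10281 CPM in the libraries labelled WT and 5003 to 10335 CPM in those labelled cKO, and 0 of 10 were called between the groups by limma, edgeR or DESeq2 (0 at an unadjusted limma p-value under 0.05). Mbp, which encodes myelin basic protein, was at 3689 to 4334 CPM in the 4 libraries and at 1734 to 3025 CPM in the other 8. The summed level of 10 astrocyte markers, none at 0, was 4126 to 4870 CPM in the 4 and 3588 to 4399 CPM in the 8. General neuron markers (8 genes, 5186 to 5862 against 4501 to 5134 CPM) and vascular markers (8 genes, 364 to 403 against 297 to 349.6 CPM) also had higher sums in the 4, without overlap, and none of either list was at 0. Between the groups, limma called 0 of 10 astrocyte markers (1 at an unadjusted p-value under 0.05), 2 of 6 markers of oligodendrocyte precursors, 1 of 8 general neuron markers and 1 of 12 hypothalamic markers (Sim1), all of the called ones higher under the cKO label, where 6.54% of all tested genes were higher. For the precursors edgeR called 1 of 6, and limma 0 once the thalamic score was added, with 1 below an unadjusted p-value of 0.05. The hypothalamic call was also lost with the thalamic score (0 of 12). The GC and length correction lost the neuron call (0 of 8), and called 3 of 6 precursor and 1 of 8 microglial markers higher. Of 8 microglial, 8 vascular, 9 cortical and striatal, 5 ependymal and 3 choroid plexus markers the main limma fit called 0, where DESeq2 called 1 choroid plexus marker lower and edgeR 0, and 3 were at an unadjusted limma p-value under 0.05. The part of these cell types in the member genes' levels was not tested beyond fits with a marker score as a covariate. With the oligodendrocyte score Lss had a log2 fold change of -0.21 (limma adjusted p-value 0.00877), and with the astrocyte score -0.26 (0.00521). The astrocyte score also moved the members that were not called. Idi1 went from -0.10 to -0.19 (limma adjusted p-value 0.0580) and Insig1 from -0.02 to -0.18 (0.0696). Hmgcs1 went from 0.049 to -0.032 and Fdps from 0.017 to -0.074, both turning sign. Sqle went from 0.074 to 0.025 and Srebf2 from 0.023 to 0.047.

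As a description, the likeness of 2 genes was measured by Pearson's r of log2(CPM + 1) with group means subtracted. Over 12 libraries, which share the split of 4 and 8, r lay between 0.42 and 0.94 for the 15 pairs among the 6 genes other than Srebf2, highest for Fdps with Sqle. It lay between -0.42 and -0.04 for the 6 pairs with Srebf2. Over the 8 libraries alone r was -0.04 to 0.84 for the 15 pairs and 0.24 to 0.80 for the pairs with Srebf2. The sign of the Srebf2 pairs rested on cKO 13: without that library alone (11 libraries, chosen after seeing the data) r was -0.03 to 0.31, positive for 5 of 6 pairs, while leaving out any of the other libraries kept 5 or 6 of the 6 negative. For the 15 pairs, r stayed at 0.28 or above whichever single library was left out. Fdps with Sqle (0.84), Idi1 with Lss (0.84) and Lss with Insig1 (0.82) were the closest within the 8.

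The genes most like the mean of the 7, out of 12181 others at 5 CPM or more, were Ubxn2a, Nacc2, Cgnl1, F2r, Llgl1, Sema7a, Atp1b2, Plin3, Fads6 and Prkcq, with r of 0.949 to 0.964 over 12 libraries and at least 0.805 over the 8. An r above 0.9 was reached by 120 genes. Between 1 (without cKO 12) and 9 (without WT 1) of these 10 were again among the 10 closest when a library was left out, so the names depended on single libraries. Of the 10, Fads6 was past the limma threshold between the groups (log2 fold change -0.32, adjusted p-value 0.0353).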

How the data were processed

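Messenger RNA from hypothalamus was sequenced in 12 libraries, grouped by sample title. STAR 2.7.9a, Subread and featureCounts are named in the submitters' processing notes; build, annotation and strand setting are not given in the sources used here. The authors deposited normalized CPM, plus, from their comparison of the groups, deposited log2 fold changes and p-values. Each deposited CPM value was a whole multiple of 1 step per library (100% within 0.01 of a whole number), so reads were recovered for the count tests. No library column was left unused (0).

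The test was limma 3.58.1 (R 4.3.3) with eBayes and trend, on log2(CPM + 1) over genes whose mean reached 1 CPM; this scale understates changes of low genes. Alternatives included edgeR 4.0.16 and DESeq2 1.42.0 on recovered reads. On simulated counts for 7 against 5 libraries over 15343 genes, limma recovered 30.0% of changes of 0.3, 74.0% of 0.5 and 98.0% of 1 log2 unit, with 10 false calls (6.21%). The simulation changed only 50 genes per size and drew genes independently, without the split of 4 and 8 libraries. How far its shares carry over to the real libraries was not tested. GC content and length matched 14515 tested genes (94.5%). Replicate pairs had a chi-square of 3.04 to 26.3 per degree of freedom, so none matched within sampling noise. The labels give no batch. In GENCODE M21 exons of Fdps overlap Gm43738 on the same strand, and those of Hmgcs1, Idi1 and Lss overlap Gm48342, Gm48574 and 4930483K19Rik on the opposite strand. Whether reads there were split is unknown without the strand setting; 4930483K19Rik was listed at 0.0490 to 0.372 CPM.

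The members and lists were chosen with earlier results of these data known. Named genes were the 7, Smc3, listed pathway genes past the threshold, neighbours fixed by name (some are not reported here, and count only within their lists) and the 10 closest by likeness; Ebp, Hsd17b7, Oxt, Hcrt, Nr5a1 and Mbp were added after their values were seen.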

Additional observations from a re-analysis of the deposited data

Results flagged for a closer look

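In 4 of 64 sets of values (1 gene or library measure in 1 group) the end library lay far from its neighbours; about 3.2 such sets are given by chance, or 1 in 20. Srebf2 was at 262 CPM in cKO 13, the lowest of its group, with the next at 315 CPM. Scap, whose product escorts SREBP-2, was also lowest in cKO 13, at 109 CPM with the next at 123 CPM. Insig2 was at 61.5 CPM in WT 4, the lowest of WT, with the next at 63.2 CPM. WT 1 had 68.7 M reads, with the next library labelled WT at 24.0 M.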

How the results depend on the processing

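No paired analysis was possible because the WT and cKO labels share no replicate number. The first principal component as a covariate and the fit without the 4 libraries were chosen after seeing the data. Genes past the threshold numbered 2172, and 5126 with arrayWeights (2405 higher), 570 with the thalamic score (183 higher), 3310 with the oligodendrocyte score (1616 higher) and 3311 with the first component (1607 higher), and from 1158 (without WT 1) to 2302 when 1 library was left out. Members past it numbered 0 in place of 1 over all genes above 0, with the thalamic score and after correction for GC and length (1, 1 and 3 at an unadjusted limma p-value under 0.05), and 0 to 1 when 1 library was left out; edgeR and DESeq2 called 1. Core genes past it (synthesis and SREBP control, 27 genes) numbered 2, and 1 over all genes above 0, 1 with the thalamic score, 1 after the GC and length correction, 6 with arrayWeights, 5 with the oligodendrocyte score, 5 with the first component and 1 to 2 when 1 library was left out. Why these counts moved was not tested.

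Smc3 kept its direction and call throughout (0.64 to 0.74). The members' median log2 fold change was -0.074 with the astrocyte score, -0.048 with arrayWeights and -0.047 without the 4 libraries; it was -0.0081 with the first component, -0.0048 after the GC and length correction and -0.0020 with the thalamic score or quantile normalization. Signs of uncalled genes turned as follows. With the astrocyte score Hmgcs1 was at -0.032, Fdps at -0.074, Fdft1 at -0.011 and Scap at 8.2e-04. After the GC and length correction Hmgcs1 was at -0.0048, Srebf1 at 0.046 and Scap at 0.053. With the thalamic score Fdps was at -0.026, Srebf2 at -0.0020 and Insig1 at 0.0018. Fdps was at -0.048 with arrayWeights, -0.0081 with the first component and -0.086 without the 4 libraries (exact permutation p-value 0.339; Idi1 0.0357), and Srebf2 at -0.0020 after quantile normalization. When 1 library was left out Hmgcs1 ran from -0.0018 to 0.081 (exact permutation p-values 0.312 to 0.948), Fdps from -0.041 to 0.059 (0.479 to 0.916), Insig1 from -0.087 to 0.048 (0.491 to 0.973), Srebf2 from 0.0039 to 0.083 (0.0182 to 0.9), Dhcr7 from -0.065 to 0.021 and Scap from -0.042 to 0.011. For the 19 named genes other than Smc3, 474 of 532 values kept direction and side of the threshold, 29 lost the call, 4 gained it and 25 changed sign. Reads were fewest for Idi1 (165 to 703 per library), where counting error limits most.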
